A study of Mus musculus with 18 samples.

Results

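Complement and coagulation factors are plasma proteins that act as cascades of proteases, and their mRNAs in mouse liver are the subject here. A list of 41 genes was drawn up by gene name, with earlier results of these data known. It held 17 complement genes, the 3 fibrinogen chains, and 21 clotting, contact, anticoagulant and fibrinolysis genes. Of these, 38 were measured among the 12394 genes of the arrays (15 complement genes, 3 fibrinogen chains and 20 clotting genes). C3, Cfd and Cpb2 had no probe set annotated to them alone and are not analysed here. Liver RNA of male C57BL/6J mice aged 10 to 16 weeks was hybridised to 18 Affymetrix arrays, 1 for each mouse, in 6 groups of 3. The mice lacked FXR in the whole body, lacked it in the liver, or were WT, and each genotype was given GW4064 or vehicle. GW4064 is a synthetic agonist of the farnesoid X receptor (FXR, gene Nr1h4), given by gavage at 150 mg per kg in 2 doses, with the liver taken 2 hours after the last, according to the sample labels. The methods describe WT mice with a lower dose given more often, and the values do not settle which was used. In the liver knockout, Cre under the albumin promoter deleted floxed Nr1h4 in hepatocytes, so that other liver cells keep the gene, whereas the whole-body knockout lacks it in every tissue. No group of floxed mice without Cre was among the arrays analysed, so WT was compared with both knockouts.

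Hepatocytes make most circulating complement and clotting proteins. Complement starts by the classical, lectin or alternative pathway, passes through C3, and ends with C5 to C9, which assemble the membrane attack complex. Coagulation runs through factors such as VII, X and XI to thrombin, which turns fibrinogen into fibrin, while antithrombin and protein C restrain it and plasmin dissolves the clot. In human hepatocytes, ligands of FXR are known to raise fibrinogen and kininogen mRNA, and several of these genes carry acute-phase control by interleukin 6.

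The deposited values are log2 expression levels after RMA, a normalization that makes the arrays alike in distribution (array medians 5.96 to 6.00), and differences are given on this log2 scale, where a difference of 1 is a doubling. A level cannot be set against that of another gene, because each probe set binds its RNA with its own efficiency. The labels of WT and knockout were borne out by the targeted gene. Its level does not tell the knockouts apart (whole-body minus liver knockout with vehicle -0.26, not called). Nr1h4 averaged 4.41 and 4.46 in liver knockout arrays with GW4064 and vehicle and 4.14 and 4.20 in whole-body knockout arrays, against 9.03 and 9.08 in WT arrays (SD 0.07 to 0.29, n = 3 each). Nr0b2, which encodes the FXR target SHP, was at 10.84, 9.59 and 9.04 with GW4064, against 7.85, 7.86 and 8.21 with vehicle in WT (log2 difference 1.85 ± 0.34 (SE), limma adjusted p = 0.0433). In the liver knockout Nr0b2 was also higher with GW4064, at 8.78, 9.04 and 8.66, against 7.56, 8.01 and 8.18 with vehicle. That difference of 0.91 was not called, nor was that of -0.75 in the whole-body knockout. The hepatocyte markers Alb, Ttr, Apoa1, Tat, Hnf4a and Cps1 had means of 12.24 to 14.89. Among markers of other cells, the highest means were 10.31 (Csf1r, Kupffer cell), 10.17 (Dcn, stellate cell), 9.21 (Clec4g, liver endothelium) and 5.75 (Cd3e, lymphocyte), each on the scale of its own probe set and so not ranked. The arrays of WT GW4064 replicate 1 and whole-body knockout GW4064 replicate 3 stood apart, with the widest spread of relative expression (interquartile range 0.259 and 0.231, against 0.127 to 0.197 in the others). The first held the highest of 18 values for 14 members and the second the lowest for 11, so calls of members that rest on them are given with and without them. The Nr0b2 call is given with all arrays only. In bulk liver, fewer cells of a type and less RNA per cell cannot be told apart.

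No measured member passed the test for GW4064 against vehicle in any genotype. With limma and Benjamini-Hochberg adjustment over all genes at 0.05, 0 of 38 members were called in WT, where 0.194% of all genes were called, 0 in the liver knockout, where 0% were, and 0 in the whole-body knockout, where 0% were. At an unadjusted p under 0.05, 7, 1 and 1 members differed in WT, liver knockout and whole-body knockout, and the methods' t-test called 0 in each after adjustment or at 1.5 fold. The median log2 difference of the members with GW4064 was 0.06 in WT, where 24 of 38 lay above 0 and the median of all genes was 0.00. It was -0.02 in the liver knockout and 0.00 in the whole-body knockout. No member reached 1.5 fold with GW4064 in any genotype, and the differences in WT ran from -0.44 (C6) to 0.39 (Pros1). The tests of whether the GW4064 effect differed between each knockout and WT also called 0 members, and 0% of all genes in either case, with 3 members (liver knockout) and 2 members (whole-body knockout) at an unadjusted p under 0.05.

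Fibrinogen, the precursor of the clot, is a product of neighbouring genes on chromosome 3 (GRCm38.p6): Fgg at chr3:83007724-83015056, Fga at chr3:83026153-83033627 and Fgb at chr3:83042246-83049863. Its chains followed each other closely from array to array, so the 150 bases before the annotated start of each are shown, from RefSeq promoters (GRCm38.p6), 5′ to 3′ on the gene's strand. Capitals mark GTTAAT, the core of an HNF1 site, and CTGGGAA, the interleukin 6 element, on either strand.
Fgg (chr3:83007574-83007723, plus strand): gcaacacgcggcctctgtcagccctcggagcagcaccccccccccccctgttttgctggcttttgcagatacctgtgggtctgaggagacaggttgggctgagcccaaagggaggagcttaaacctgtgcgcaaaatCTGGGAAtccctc
Fga (chr3:83026003-83026152, plus strand): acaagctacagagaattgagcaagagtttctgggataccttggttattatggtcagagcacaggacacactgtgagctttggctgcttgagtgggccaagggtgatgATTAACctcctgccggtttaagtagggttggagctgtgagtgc
Fgb (chr3:83049864-83050013, minus strand): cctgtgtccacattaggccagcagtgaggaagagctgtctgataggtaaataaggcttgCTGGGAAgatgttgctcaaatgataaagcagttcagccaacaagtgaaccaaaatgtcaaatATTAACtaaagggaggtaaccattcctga

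Within the printed stretch, Fga and Fgb held the HNF1 hexamer (at positions -43 to -38 and -29 to -24 from the start), and Fgb and Fgg held the interleukin 6 element (at -91 to -85 and -13 to -7). Over the whole 300-base RefSeq promoters (250 bases before to 50 after the start), 30 of the 38 measured members matched, with 32 promoters. The HNF1 hexamer GTTAAT was in 10 of these 32 promoters (31.2%), against 7.1% of all 32851 promoters. The interleukin 6 element CTGGGAA was in 7 (21.9%, against 11.1%), and the STAT site TTCNNNGAA in 7 (21.9%, against 8.3%). The C/EBP site TTGCGNAA was in 1, that of Serpinc1 (3.12%, against 0.798%). IR1, the inverted repeat to which FXR binds, searched with up to 2 mismatches in its 12 fixed bases, was in 0 of the 32 promoters and in 1.14% of all. Both strands were searched, and a match of letters is not evidence of binding.

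Fga, the alpha chain, was at 14.03, 13.89 and 13.71 with GW4064, against 13.76, 13.65 and 13.79 with vehicle in WT. Fgb, the beta chain, was at 14.58, 14.36 and 14.11 with GW4064, against 14.23, 14.14 and 14.27 with vehicle. Fgg, the gamma chain, was at 14.50, 14.29 and 14.08 with GW4064, against 14.20, 14.04 and 14.20 with vehicle. In each chain, GW4064 replicate 1 was the highest array of all 18 and replicate 3 lay among the vehicle arrays or, for Fgb, just below them, so the groups overlapped. The log2 differences with GW4064 were 0.14, 0.13 and 0.14 for Fga, Fgb and Fgg (limma adjusted p = 0.603, 0.688 and 0.627).

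In the liver knockout, Fga was at 13.72, 13.72 and 13.76 with GW4064, against 13.73, 13.89 and 13.75 with vehicle. Fgb in the liver knockout was at 14.02, 14.13 and 14.07 with GW4064, against 14.07, 14.29 and 14.11 with vehicle, and Fgg at 14.08, 14.14 and 14.12 with GW4064, against 14.09, 14.25 and 14.17 with vehicle. Here the replicates with GW4064 lay within or just under the span of those with vehicle. In the whole-body knockout, Fga was at 13.48, 13.70 and 13.89 with GW4064, against 13.70, 13.77 and 13.65 with vehicle. Fgb in the whole-body knockout was at 13.93, 14.08 and 14.32 with GW4064, against 14.09, 14.18 and 14.08 with vehicle, and Fgg at 13.89, 14.13 and 14.25 with GW4064, against 14.13, 14.17 and 14.08 with vehicle. GW4064 replicate 1 was the lowest whole-body knockout array and replicate 3 the highest in each chain. Expressed as deviations from their own means over all arrays, the chains differed from each other by at most 0.14 within an array (median 0.05), whereas each chain ranged over 0.55 to 0.65 across the 18 arrays. None of the 6 comparisons of groups called a chain.

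**Figure D1:**
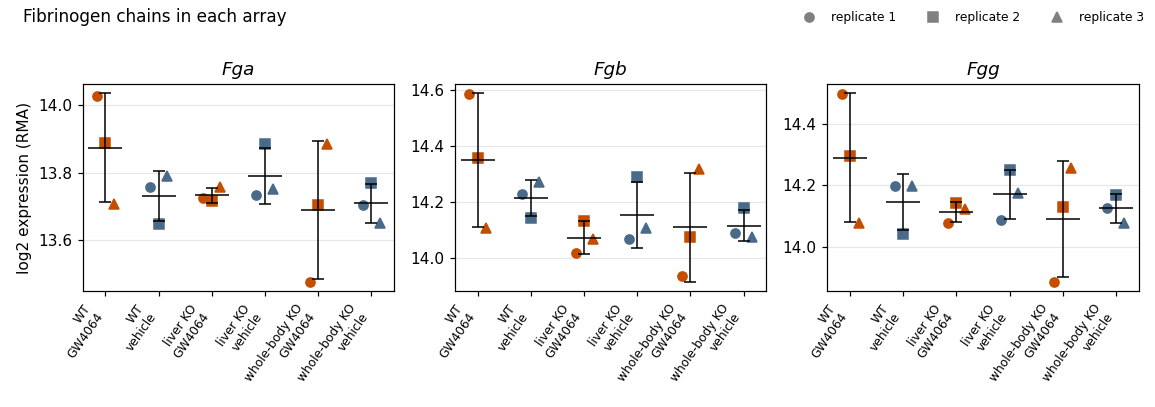
Log2 expression (vertical axis) of Fga, Fgb and Fgg in each array by group, with the mean and SD of 3 arrays in black and replicates by marker shape. WT GW4064 replicate 1 is highest in each panel (14.03, 14.58 and 14.50), and the panels share their ups and downs.

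Among the genes of the lectin pathway, Masp1, whose products include the protease MASP-1, came nearest to a call with GW4064. It was at 10.49, 10.59 and 10.44 with GW4064, against 10.14, 10.22 and 10.08 with vehicle in WT, without overlap (log2 difference 0.36 ± 0.09 (SE), limma adjusted p = 0.136). In the liver knockout it was at 10.36, 10.44 and 10.44 with GW4064, against 10.26, 10.66 and 10.58 with vehicle. The whole-body knockout gave 10.34, 10.51 and 10.25 with GW4064, against 10.39, 10.44 and 10.44 with vehicle. Thus the vehicle arrays of both knockouts lay above all 3 WT vehicle arrays (log2 differences 0.35 and 0.27 for liver and whole-body knockout, adjusted p = 0.0933 and 0.202). The other 4 probe sets of Masp1 had lower signal and did not follow it in WT, where they differed by -0.33 to -0.06 with GW4064, so the value belongs to 1 probe set.

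Mbl1 and Mbl2 encode the mannose-binding lectins that bind microbial sugars. Mbl1 was at 11.84, 11.78 and 11.49 with GW4064, against 11.54, 11.56 and 11.31 with vehicle in WT. In the liver knockout Mbl1 was at 11.55, 11.81 and 11.60 with GW4064, against 11.58, 11.80 and 11.62 with vehicle, and in the whole-body knockout at 11.53, 11.59 and 11.24 with GW4064, against 11.49, 11.50 and 11.26 with vehicle. GW4064 and vehicle arrays overlapped in every genotype (WT log2 difference 0.23, adjusted p = 0.448). Mbl2 was at 11.83, 12.37 and 12.52 with GW4064, against 11.94, 12.52 and 12.61 with vehicle in WT. Mbl2 in the liver knockout was at 12.00, 12.37 and 12.10 with GW4064, against 12.15, 12.60 and 12.43 with vehicle, and in the whole-body knockout at 12.28, 12.42 and 12.74 with GW4064, against 12.16, 12.28 and 12.20 with vehicle. The arrays of Mbl2 with GW4064 and with vehicle overlapped in every genotype, and no comparison called it. Masp2, the protease that cleaves C4 and C2, differed by -0.16 to -0.09 with GW4064 in the 3 genotypes, and its second probe set differed by 0.08 in WT. C4bp, which encodes a chain of the C4b-binding protein, differed by 0.25 with GW4064 in WT (adjusted p = 0.307), and C2, the classical pathway protease next to Cfb on chromosome 17, by 0.00.

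F7 encodes factor VII, which starts coagulation with tissue factor. It was at 10.13, 10.20 and 9.95 with GW4064, against 9.85, 9.77 and 9.87 with vehicle in WT, without overlap (log2 difference 0.26 ± 0.09 (SE), limma adjusted p = 0.249). In the liver knockout F7 was at 9.59, 9.68 and 9.79 with GW4064, against 9.47, 9.78 and 9.69 with vehicle, and in the whole-body knockout at 9.65, 9.73 and 9.77 with GW4064, against 9.67, 9.72 and 9.87 with vehicle. All 6 arrays of each knockout lay at or below 9.87, and all 3 WT arrays with GW4064 lay above that. The vitamin K-dependent factor F9 also did not overlap with GW4064 in WT (log2 difference 0.19, adjusted p = 0.276), whereas F10, next to F7 on chromosome 8, differed by -0.04. Proz, the third gene of that cluster, differed by 0.21 (adjusted p = 0.344) and encodes protein Z, a cofactor for inhibition of factor X. Across the members, 9 had WT arrays with GW4064 that did not overlap those with vehicle (23.7%, against 14.7% of all genes): F7, F9, Masp1, Plg and Proz lay above and C6, Proc, Serpinc1 and Tfpi below.

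F2 encodes prothrombin and was among the steadiest members. Its WT arrays were at 13.25, 13.22 and 13.18 with GW4064, against 13.18, 13.28 and 13.23 with vehicle. F2 in the liver knockout was at 13.14, 13.26 and 13.18 with GW4064, against 13.17, 13.23 and 13.16 with vehicle, and in the whole-body knockout at 13.11, 13.19 and 13.30 with GW4064, against 13.26, 13.21 and 13.11 with vehicle. No 2 groups differed in F2 by more than 0.04 in the 6 comparisons. F5, the cofactor of factor Xa, was at 11.57, 11.80 and 11.44 with GW4064, against 11.40, 11.65 and 11.57 with vehicle in WT. F5 in the liver knockout was at 11.39, 11.76 and 11.55 with GW4064, against 11.20, 11.39 and 11.41 with vehicle, and in the whole-body knockout at 11.14, 11.48 and 11.54 with GW4064, against 11.47, 11.02 and 11.34 with vehicle. The arrays overlapped with GW4064 in each genotype, and its largest log2 difference was -0.26 (whole-body knockout against WT with vehicle, adjusted p = 0.44).

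Plg encodes plasminogen, the precursor of the fibrin-cleaving protease. It was at 13.67, 13.58 and 13.57 with GW4064, against 13.51, 13.42 and 13.50 with vehicle in WT. Plg in the liver knockout was at 13.50, 13.59 and 13.62 with GW4064, against 13.29, 13.47 and 13.47 with vehicle, and in the whole-body knockout at 13.37, 13.53 and 13.57 with GW4064, against 13.40, 13.46 and 13.40 with vehicle. The replicates with GW4064 lay above those with vehicle in WT and in the liver knockout but not in the whole-body knockout, with log2 differences of 0.13, 0.16 and 0.07 (adjusted p = 0.501, 0.992 and 0.933), none of which passed. Serpinf2, the plasmin inhibitor, differed by 0.15 in WT, Vtn, the adhesion protein vitronectin, by 0.13, and Serpind1, heparin cofactor II, by 0.10. Pros1, the protein S gene, differed by 0.39, with WT arrays at 9.28, 9.03 and 8.64 with GW4064, against 8.34, 8.64 and 8.79 with vehicle (adjusted p = 0.366). The contact genes F12, Klkb1 and Kng1, which start coagulation on surfaces and release bradykinin, differed by 0.12, -0.26 and 0.16 in WT (adjusted p = 0.685, 0.381 and 0.653). F13b, a chain of the clot-stabilising factor XIII, differed by 0.05.

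With vehicle alone, 1 of 38 members was called in the liver knockout against WT, where 0.879% of all genes were, and 2 of 38 in the whole-body knockout against WT, where 1.14% were. The whole-body knockout against the liver knockout called 0 members, where 0.678% of all genes were called, with 7 members at an unadjusted p under 0.05. The F test for any difference among the 6 groups called 6 members (C8a, Cfb, Cfi, F7, F11 and Serpinc1), which is 15.8%, against 6.08% of all genes. In the whole-body knockout with vehicle, 32 of 38 members lay below WT, with a median log2 difference of -0.09, against -0.01 for all genes. The liver knockout had 24 of 38 below WT and a median of -0.06, against -0.01.

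**Figure D2:**
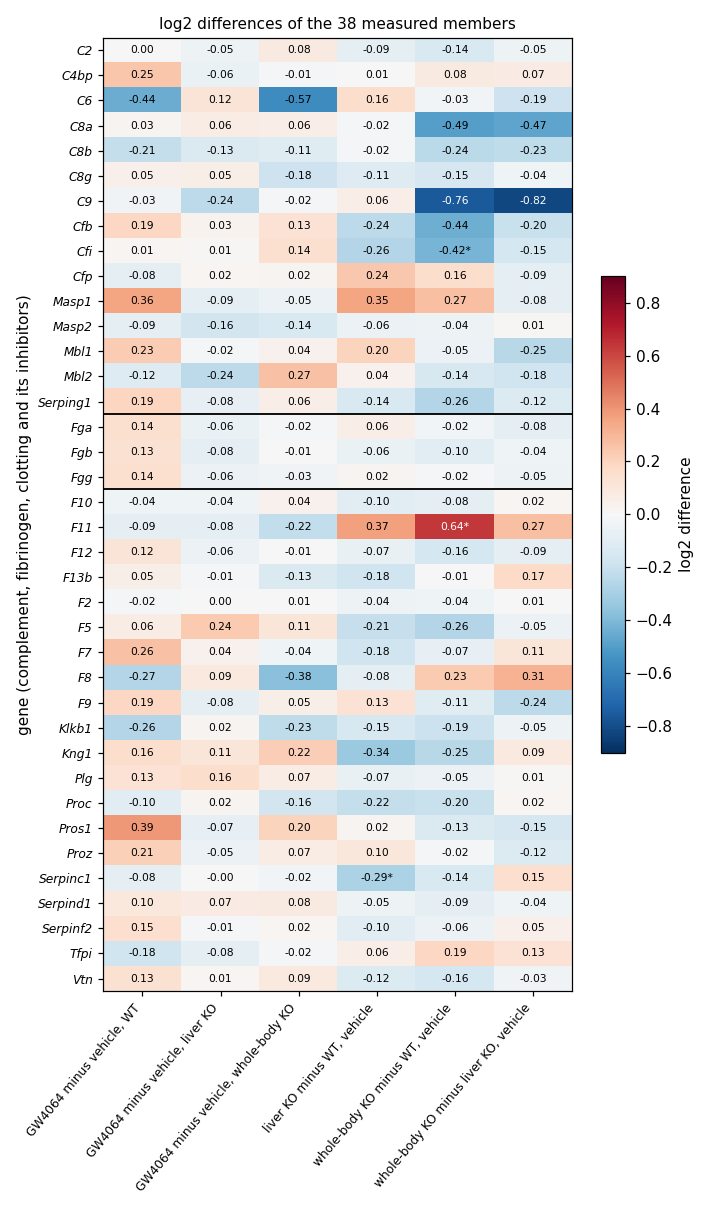
Log2 differences (colour and number) of the 38 measured members, in rows by class, for GW4064 minus vehicle in each genotype and for the genotypes with vehicle, in columns. Asterisks mark limma adjusted p under 0.05, which F11 (0.64), Cfi (-0.42) and Serpinc1 (-0.29) reached, and no asterisk stands in the GW4064 columns.

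The absence of a call with GW4064 does not show that the treatments were alike. Pooling them mixes any response to GW4064 into a difference of genotypes. With that limit, genotypes were also compared with both treatments pooled (6 arrays each), a comparison chosen after the data were seen. It called 6 members in the liver knockout against WT (15.8%, against 3.74% of all genes): F11 was higher, and Cfb, Cfi, F7, Kng1 and Serpinc1 were lower. In the whole-body knockout against WT it called 10 (26.3%, against 7.25%): F11 and Tfpi were higher, and C8a, C9, Cfb, Cfi, F7, F9, Proc and Serping1 were lower. In the whole-body against the liver knockout it called C8a and C9, both lower (5.26%, against 5.74%). With 1 array left out, these counts ran from 1 to 8, 6 to 13 and 2 to 3. Bright probe sets were called more often in general: of the 1191 genes with a mean of at least 10, 8.56%, 12.8% and 9.82% were called in these comparisons, against 16.1%, 25.8% and 6.45% of the 31 members that bright. Without the arrays that stood apart the comparisons called 4, 5 and 2 members, among 411, 692 and 742 of all genes, and these were F7, F13b, Kng1 and Serpinc1 in the liver knockout and C8a, C9, Cfb, Cfi and F11 in the whole-body knockout against WT. The last 5 genes were called in the whole-body knockout against WT with vehicle alone when whole-body knockout GW4064 replicate 3, which enters that comparison only through the shared spread, was left out.

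F11 encodes factor XI of the contact-driven branch and was the member with the clearest rise without FXR. It was at 10.57, 10.61 and 10.46 with GW4064, against 10.78, 10.87 and 10.67 with vehicle in the whole-body knockout. The liver knockout had F11 at 10.36, 10.26 and 10.64 with GW4064, against 10.51, 10.48 and 10.50 with vehicle. In WT it was at 9.95, 10.05 and 10.13 with GW4064, against 10.06, 9.88 and 10.45 with vehicle. All 6 whole-body knockout arrays lay above all 6 WT arrays, and the liver knockout arrays spanned the gap, overlapping both. With vehicle, the whole-body knockout differed from WT by 0.64 ± 0.12 (SE, limma adjusted p = 0.0141), a 1.56-fold higher level, and the liver knockout by 0.37 (adjusted p = 0.188). Pooled over treatments, the differences were 0.57 ± 0.09 (SE), limma adjusted p = 0.000618, for the whole-body knockout and 0.37 ± 0.09 (SE), limma adjusted p = 0.0223, for the liver knockout. The second lost its call without the arrays that stood apart (0.35, adjusted p = 0.0505). With vehicle, the whole-body call was lost without WT vehicle replicate 1 or 2 or whole-body knockout vehicle replicate 1 or 2 or in a fit of the compared groups alone (highest adjusted p over all settings 0.0802), whereas the pooled call was kept in each of 27 settings. Klkb1, the prekallikrein gene beside F11 on chromosome 8, differed by -0.19 with vehicle in the whole-body knockout (adjusted p = 0.527).

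Serpinc1, the antithrombin gene, which inhibits thrombin and factor Xa, was lower in the liver knockout. It was at 13.67, 13.80 and 13.75 with GW4064, against 13.72, 13.79 and 13.73 with vehicle there. In the whole-body knockout it was at 13.85, 13.91 and 13.86 with GW4064, against 13.91, 13.92 and 13.86 with vehicle. WT livers had 13.95, 13.92 and 13.99 with GW4064, against 14.01, 14.00 and 14.09 with vehicle. All 6 liver knockout arrays lay below all 6 WT arrays, and the whole-body knockout arrays lay between, with vehicle replicate 2 level with the lowest WT array. With vehicle the liver knockout differed from WT by -0.29 ± 0.06 (SE, limma adjusted p = 0.0357), and pooled over treatments by -0.25 ± 0.04 (adjusted p = 0.00412), which is 0.842 times the WT level. The pooled call was kept in each of 27 settings, while the call with vehicle was lost without any 1 of its own 6 arrays or without liver knockout GW4064 replicate 3. In the whole-body knockout the pooled difference was -0.11 (adjusted p = 0.154). Proc, the protein C gene, was at 11.98, 12.29 and 11.94 with GW4064, against 12.27, 12.26 and 12.17 with vehicle in the whole-body knockout. Proc in the liver knockout was at 12.18, 12.26 and 12.27 with GW4064, against 12.12, 12.26 and 12.27 with vehicle, and in WT at 12.31, 12.35 and 12.34 with GW4064, against 12.40, 12.55 and 12.35 with vehicle. Every knockout array of Proc lay below every WT array, and pooled differences were -0.23 (adjusted p = 0.0331) and -0.16 (adjusted p = 0.196) for the whole-body and liver knockout. The first lost its call without the arrays that stood apart (-0.20, adjusted p = 0.0989). With vehicle alone, Proc differed from WT by -0.20 and -0.22 (limma adjusted p = 0.335 and 0.304), which was not called.

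Cfi and Cfb act on the alternative pathway: Cfi encodes factor I, which inactivates C3b, and Cfb encodes factor B, the protease of the C3 convertase. Cfi was at 12.52, 12.80 and 12.96 with GW4064, against 12.56, 12.68 and 12.60 with vehicle in the whole-body knockout. Cfi in the liver knockout was at 12.81, 12.79 and 12.75 with GW4064, against 12.65, 12.88 and 12.77 with vehicle, and in WT at 13.13, 13.02 and 12.99 with GW4064, against 12.92, 13.06 and 13.11 with vehicle. The liver knockout arrays lay below all of WT, and of the whole-body knockout only GW4064 replicate 3 reached the WT range. With vehicle the whole-body difference was -0.42 ± 0.10 (SE, limma adjusted p = 0.0481), a call that 15 of 18 leave-1-out fits lost, and pooled it was -0.35 ± 0.07 (adjusted p = 0.00485), kept in each of 27 settings. Cfb was at 11.20, 11.47 and 11.52 with GW4064, against 11.38, 11.32 and 11.09 with vehicle in the whole-body knockout. Cfb in the liver knockout was at 11.40, 11.62 and 11.48 with GW4064, against 11.51, 11.45 and 11.44 with vehicle, and in WT at 12.04, 11.88 and 11.75 with GW4064, against 11.69, 11.82 and 11.60 with vehicle. All 6 whole-body knockout arrays lay below all 6 WT arrays, with a pooled difference of -0.47 ± 0.07 (adjusted p = 0.00117). With vehicle alone the Cfb difference was -0.44 (limma adjusted p = 0.0553), which was not called. Cfb was 0.19 higher with GW4064 than with vehicle in WT. In the liver knockout the pooled differences were -0.31 for Cfb and -0.26 for Cfi (adjusted p = 0.0273 and 0.0437), and both lost the call without the arrays that stood apart (adjusted p = 0.0541 and 0.0536).

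**Figure D3:**
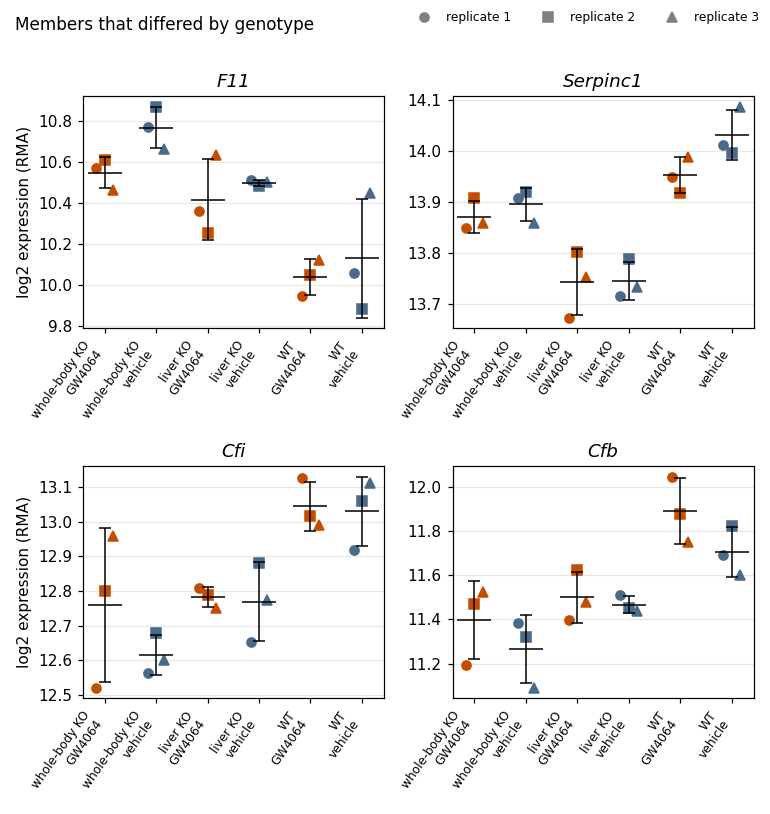
Log2 expression (vertical axis) of F11, Serpinc1, Cfi and Cfb in each array by group, with the mean and SD of 3 arrays in black. F11 of the whole-body knockout sits between 10.46 and 10.87, above WT (9.88 to 10.45), and Serpinc1 of the liver knockout between 13.67 and 13.80, below WT (13.92 to 14.09).

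Of the 5 terminal complement members, C8a and C9 were lower in the whole-body knockout than in either other genotype, with treatments pooled. C9 encodes the protein that polymerises into the pore, and was at 12.36, 12.80 and 11.44 with GW4064, against 12.28, 12.37 and 12.01 with vehicle in the whole-body knockout. C9 in the liver knockout was at 12.97, 12.70 and 12.73 with GW4064, against 13.17, 12.91 and 13.02 with vehicle, and in WT at 12.72, 13.10 and 13.01 with GW4064, against 13.03, 12.87 and 13.02 with vehicle. Only whole-body knockout GW4064 replicate 2 reached the range of the other genotypes. With vehicle, the whole-body knockout differed by -0.76 from WT and by -0.82 from the liver knockout (adjusted p = 0.142 and 0.127), the largest differences of any member. Pooled over treatments they were -0.75 ± 0.16 and -0.71 ± 0.16 (SE, adjusted p = 0.00879 and 0.0172), and -0.61 and -0.52 without the arrays that stood apart (adjusted p = 0.00127 and 0.0046).

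C8a, the alpha chain of C8, was at 12.36, 12.65 and 12.01 with GW4064, against 12.40, 12.39 and 12.04 with vehicle in the whole-body knockout. The 12 other arrays had C8a between 12.66 and 12.97, above every whole-body knockout array. With vehicle alone, C8a differed by -0.49 from WT and by -0.47 from the liver knockout (limma adjusted p = 0.103 and 0.139), which was not called. The pooled difference was -0.48 ± 0.10 from WT and -0.47 ± 0.10 from the liver knockout (SE, adjusted p = 0.00592 and 0.00937), and both calls, like those of C9, were kept in each of 27 settings. C8b, beside C8a on chromosome 4, and C8g, the gamma chain on chromosome 2, were not called, with vehicle differences from WT of -0.24 and -0.15. C6 was at 11.32, 11.45 and 9.22 with GW4064, against 11.36, 11.51 and 10.82 with vehicle in the whole-body knockout, where replicate 3 with GW4064 was the lowest of all 18 arrays for each of the 5 terminal members. Of these 5, all lay below WT and below the liver knockout with vehicle, with medians of -0.24 and -0.23. The liver knockout against WT had a median of -0.02, with 2 above and 3 below 0.

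**Figure D4:**
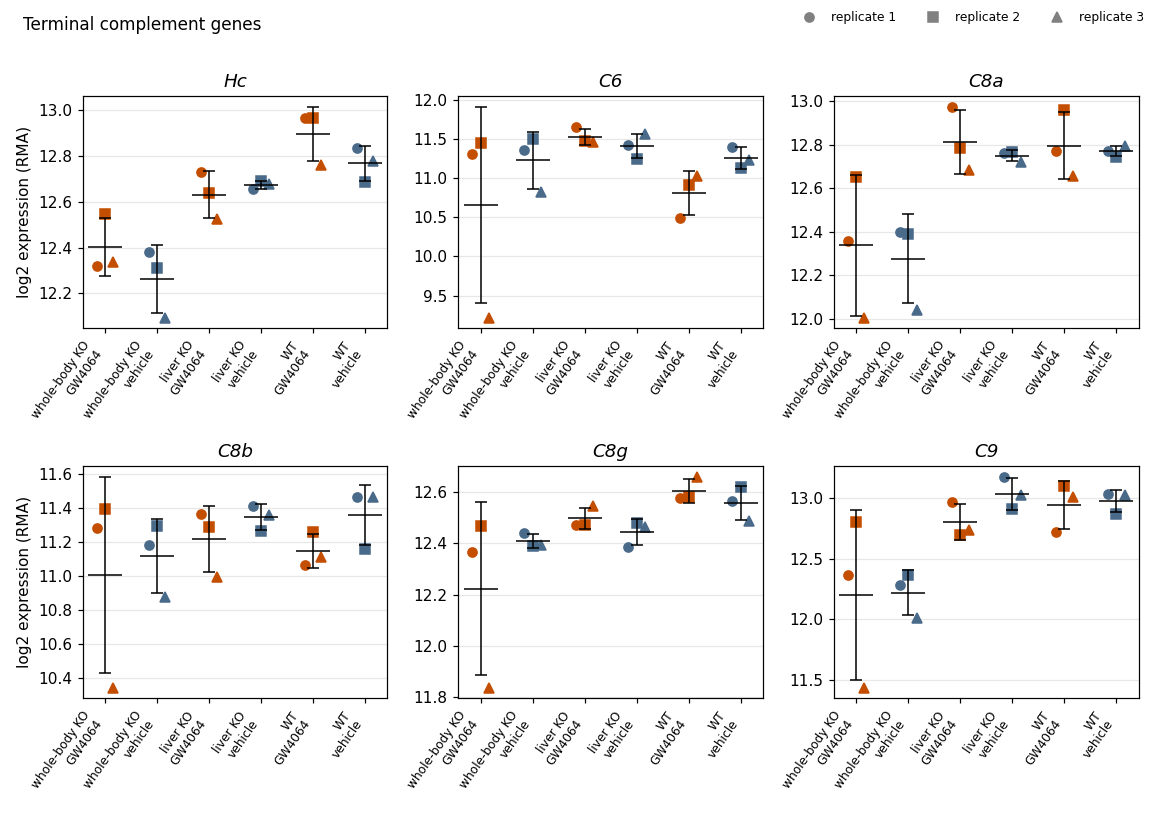
Log2 expression (vertical axis) of the terminal complement genes in each array by group, with the mean and SD of 3 arrays in black and replicates by marker shape. C8a of the whole-body knockout (12.01 to 12.65) lies below every other array, and GW4064 replicate 3 of that genotype is the lowest array for C6, C8a, C8b, C8g and C9.

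Among 19 other complement genes measured, Hc, which encodes C5, the first of the terminal proteins, was lower in the whole-body knockout with vehicle. It was at 12.32, 12.55 and 12.34 with GW4064, against 12.38, 12.31 and 12.09 with vehicle there. Hc in the liver knockout was at 12.73, 12.64 and 12.52 with GW4064, against 12.65, 12.69 and 12.68 with vehicle, and in WT at 12.96, 12.96 and 12.76 with GW4064, against 12.84, 12.69 and 12.78 with vehicle. The 6 whole-body knockout arrays lay below all 12 others except liver knockout GW4064 replicate 3, which was at 12.52. With vehicle the difference from WT was -0.50 ± 0.09 (SE, limma adjusted p = 0.0119), and pooled it was -0.50 from WT and -0.32 from the liver knockout (adjusted p = 0.000157 and 0.00959). In the pooled comparison with WT, C1ra and Clu also fell (-0.26 and -0.18), and none of the 19 rose. Without the arrays that stood apart C1ra and Clu lost their calls (adjusted p = 0.103 and 0.0725), and Hc kept its call (adjusted p = 0.00127). Of 28 other coagulation and fibrinolysis genes, 0 were called by limma in any of the 8 comparisons, and in the pooled whole-body comparison 1 rose and 2 fell (Serpina5, Vkorc1 and Vwf, with differences of -0.21, -0.29 and 0.59). Of these, only Vwf was called without those arrays (adjusted p = 0.134, 0.0811 and 0.0105). Serpina5 and Vwf were dim, at 3.61 to 4.10 and 4.09 to 5.40 over the 18 arrays.

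Of 8 genes that drive or receive the acute-phase signal, all lay above 0 with GW4064 in WT (median 0.45), and 1 was called. This was Il1r1, the interleukin 1 receptor, at 10.82, 10.42 and 9.15 with GW4064, against 8.83, 8.27 and 8.43 with vehicle (limma adjusted p = 0.0433). Its highest value is from replicate 1, an array that stood apart, and this call is given with all arrays only. Replicates 2 and 3 also lay above each vehicle array. The median of the 8 over each WT array, relative to the vehicle mean, was 0.41, 0.63 and 0.06 with GW4064 replicates 1, 2 and 3, and that of the fibrinogen chains was 0.35, 0.15 and -0.07. Replicate 3 was lowest in both, whereas replicate 2 was highest for the 8 genes and replicate 1 for the fibrinogen chains. A link between these genes and fibrinogen was not tested. Of 6 hepatocyte transcription factors, Hnf4a, which drives many liver genes, was at 11.86, 12.27 and 11.88 with GW4064, against 11.98, 11.89 and 11.91 with vehicle in the whole-body knockout. Hnf4a in the liver knockout was at 12.27, 12.46 and 12.40 with GW4064, against 12.27, 12.50 and 12.40 with vehicle, and in WT at 12.52, 12.38 and 12.39 with GW4064, against 12.33, 12.39 and 12.28 with vehicle. All whole-body knockout arrays lay below all others, and the pooled difference was -0.42 from WT and -0.42 from the liver knockout (adjusted p = 0.00149 and 0.00275). In the pooled comparisons, Il1r1 and Il6ra, the interleukin 6 receptor gene, were also called lower in the whole-body knockout than in WT and in the liver knockout. Nr0b2 was called lower there than in WT. The pooled WT arrays include those with GW4064, where Il1r1 and Nr0b2 were called higher than with vehicle. With vehicle alone, none of Il1r1, Il6ra and Nr0b2 was called in the whole-body knockout against WT. Nr0b2 then lay above WT, by 0.39. The part of Hnf4a or of these genes in the level of C8a, C9 or Hc was not tested.

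The study lists genes with FXR bound upstream in livers of mice given GW4064. The upstream stretch used for that list is longer than the promoters searched here, so the IR1 count covers only part of it. The study also states that these mouse binding data had no control antibody, so some sites may be non-specific. In its complement and coagulation pathway or among its wound response genes, 13 measured members are named. Their median difference with GW4064 in WT was 0.14, with 10 of 13 above 0, against 0.03 and 14 of 25 for the other members. Without Proz, their array medians relative to WT with vehicle were 0.30, 0.15 and -0.04 with GW4064 replicates 1, 2 and 3. The vehicle arrays had -0.05 to 0.05, so replicate 3 lay among them, and replicate 1 is an array that stood apart. The fibrinogen chains, which moved together, are among the 13. In the liver and whole-body knockout their medians with GW4064 were -0.01 and 0.02. With vehicle, all 13 lay below WT in the whole-body knockout (median -0.06), as did 19 of the 25 others (median -0.11). None of the 13 was called with GW4064.

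Members made mainly by other cells were dim. F8, the factor VIII gene of liver endothelium, was at 5.91, 5.95 and 6.38 with GW4064, against 6.18, 6.44 and 6.43 with vehicle in WT. F8 in the liver knockout was at 6.22, 6.41 and 6.46 with GW4064, against 6.26, 6.39 and 6.16 with vehicle, and in the whole-body knockout at 6.31, 6.35 and 5.95 with GW4064, against 6.76, 6.44 and 6.53 with vehicle. With GW4064 it differed by -0.27 in WT and by -0.38 in the whole-body knockout (adjusted p = 0.445 and 0.785), and the groups did not overlap in the whole-body knockout. Cfp, the properdin gene of myeloid cells, was at 6.30, 6.88 and 6.51 with GW4064, against 6.51, 6.62 and 6.80 with vehicle in WT. Cfp in the liver knockout was at 6.93, 6.81 and 6.97 with GW4064, against 6.84, 6.93 and 6.90 with vehicle, and in the whole-body knockout at 6.83, 6.66 and 6.98 with GW4064, against 6.91, 6.96 and 6.53 with vehicle. No comparison called F8 or Cfp. Tfpi, the tissue factor pathway inhibitor of endothelium, ranged from 6.00 to 6.32 in whole-body knockout arrays, against 5.62 to 6.05 in WT arrays (pooled difference 0.27, adjusted p = 0.0411, and 0.26, adjusted p = 0.0518, without the arrays that stood apart). All 3 probe sets of Tfpi were above WT with vehicle, with differences of 0.19 to 0.49. The 7 liver endothelial markers had array medians of -0.18 to 0.30 in the whole-body knockout, against -0.81 to 0.03 in WT, relative to WT with vehicle, and 2 of 7 rose in the pooled comparison (Lyve1 and Stab2). The 7 stellate cell markers had medians of 0.23 to 0.52 in the whole-body knockout, against -0.61 to 0.20 in WT, and 5 of 7 rose (Col1a1, Col3a1, Dcn, Pdgfrb and Reln), of which Col1a1 lost its call without the arrays that stood apart (adjusted p = 0.0804). The 6 Kupffer cell markers had medians of -0.04 to 0.74, against -0.51 to 0.60, and none was called. The 6 hepatocyte markers had medians of -0.05 to 0.02, against -0.10 to 0.04, and 1 of 6 was called, Hnf4a, which was lower as given above. The part of these cells in the members' levels was not tested.

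Several members were called by pooling alone. Kng1, the kininogen gene, was lower in the liver knockout (log2 difference -0.36 ± 0.08 (SE), limma adjusted p = 0.0254), with arrays of 13.13, 13.36 and 13.25 with GW4064, against 13.05, 13.24 and 13.11 with vehicle in the liver knockout. Kng1 in WT was at 13.82, 13.67 and 13.39 with GW4064, against 13.34, 13.45 and 13.62 with vehicle. WT vehicle replicate 1 lay within the range of the liver knockout. The Kng1 call was lost in 6 of 18 leave-1-out fits, among them the fit without WT GW4064 replicate 1. It was kept without both arrays that stood apart (-0.31, limma adjusted p = 0.0264). The second, dimmer probe set of Kng1 differed by -0.12 with vehicle, against -0.34 for the brighter. Pooled over treatments, F7 differed from WT by -0.29 and -0.22 in the liver and whole-body knockout (limma adjusted p = 0.0191 and 0.0491). The second call was lost without the arrays that stood apart (-0.23, adjusted p = 0.1). The pooled WT arrays include those with GW4064, where F7 was higher by 0.26 than with vehicle. With vehicle alone, F7 differed from WT by -0.18 and -0.07 (limma adjusted p = 0.441 and 0.783), which was not called. Serping1, the C1 inhibitor gene, differed by -0.33 in the pooled whole-body knockout (adjusted p = 0.0144), and F9, the factor IX gene, by -0.17 (adjusted p = 0.0408). Both calls were lost without the arrays that stood apart (adjusted p = 0.0596 and 0.149). Serping1 and F9 were each higher by 0.19 with GW4064 in WT. With vehicle alone, their differences from WT were -0.26 and -0.11 (limma adjusted p = 0.296 and 0.543). Over all members, the highest of the 6 group means was that of WT with GW4064 for 23 of 38 (60.5%, against 21.5% of all genes), and for 21 of 38 without WT GW4064 replicate 1 (55.3%, against 17.6%). The lowest was that of the whole-body knockout with vehicle for 12 of 38 (31.6%, against 18.3%).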

How the data were processed

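The 41 genes, the other lists and the comparisons were chosen with earlier results of these data known. The authors normalized the 18 arrays by RMA (version not given in the sources used here) and deposited log2 expression per probe set, used as it stands. The methods name another array type than the deposited probe sets belong to, so symbols came from the platform annotation. Of 22690 probe sets, 20393 had 1 symbol, 691 several and 1606 none, and the probe set with the highest mean stood for each of 12394 genes (12370 matched RefSeq GRCm38.p6). Each column was matched to its sample by name.

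Tests used limma 3.58.1 in R 4.3.3 with 6 group means, 12 residual degrees of freedom, and two-sided p-values adjusted over all genes (Benjamini-Hochberg) at 0.05. The labels do not say whether mice of a group shared a litter or cage, so p-values measure the spread between these samples, and 3 arrays per group limit the precision. Fixed genes and members past the threshold were named with each array's value, and the other pathway genes past it. F11's neighbour and the pooled-treatment results were chosen after values were seen. Alternatives were the compared groups alone, quantile normalization, median centring, array weights, a trended robust prior, no dim 40% of genes, all probe sets, their mean, a replicate block, the methods' t-test, each array left out, and no arrays that stood apart. The fit was tested on simulated data. Figures used matplotlib 3.10.9.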

Additional observations from a re-analysis of the deposited data

How the results depend on the processing

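The count of members called with GW4064, or for a different GW4064 effect between genotypes, was 0 under every alternative. With vehicle, the liver knockout against WT called 1 member, 0 with the compared groups alone, 0 with quantile normalization, 0 by the methods' t-test at 1.5 fold or adjusted, 2 with array weights, and 0 to 1 with each array left out. The whole-body knockout against WT called 2, 1 with the compared groups alone, 1 with all probe sets, 0 by the adjusted t-test, 4 with array weights, 5 without the arrays that stood apart, and 0 to 5 with each array left out. The whole-body against the liver knockout called 0, 1 with the compared groups alone, 1 by the t-test at 1.5 fold, 1 without the arrays that stood apart, 2 with array weights, and 0 to 1 with each array left out. The F test called 6, and 2 to 8 with each array left out. With treatments pooled, the liver knockout called 6, and 1 to 8 with each array left out. The whole-body knockout called 10, 5 without the arrays that stood apart, and 6 to 13 with each array left out. The whole-body against the liver knockout called 2, and 4 without the dimmest 40% of genes or with the mean of a gene's probe sets, and 2 to 3 with each array left out. The pooled liver knockout count was 1 without liver knockout vehicle replicate 1, 2 without WT GW4064 replicate 1 or liver knockout GW4064 replicate 1, and 3 without WT vehicle replicate 2 or liver knockout vehicle or GW4064 replicate 3. The pooled whole-body count was 6 without WT vehicle replicate 1 or 2, WT GW4064 replicate 1, or whole-body knockout vehicle or GW4064 replicate 1. The F test called 2 without WT vehicle replicate 2 or 3, liver knockout vehicle replicate 3 or liver knockout GW4064 replicate 1, and 3 without WT vehicle replicate 1, liver knockout vehicle replicate 1 or liver knockout GW4064 replicate 2. The vehicle count of the whole-body knockout against WT was 0 without WT or whole-body knockout vehicle replicate 1 or 2, and 5 without whole-body knockout GW4064 replicate 3. None of the called differences changed sign in these settings. With the mean of a gene's probe sets, 12 differences that were not called changed sign, in 6 members, including those with GW4064 in WT of Masp1 (-0.08, against 0.36) and F10 (0.02, against -0.04). The cause of these shifts was not tested.

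Whether replicate numbers pair the samples was not settled, because arrays with different numbers were not correlated for comparison. Of 45 same-numbered pairs, 13 had a correlation over 0.1 (range -0.23 to 0.34). With the replicate block, the vehicle comparisons called 1, 3 and 0, the pooled ones 7, 10 and 3, and the F test 7. The files hold no calls of presence, so for the dim F8, Cfp, Tfpi, Serpina5 and Vwf a background level is unknown, and 3 arrays per group limit every test.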
